A study of Mus musculus with 150 samples.

Results

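The deletion 680kdel removes chr16:47900059-48581356 (mm10, 681.3 kb) from mouse embryonic stem cells (mESC). It was profiled by Repli-seq, which sequences DNA newly made in early and in late S phase and gives each position a replication timing score. The members are the 6 of 150 samples labelled 680kdel, chosen by their label. They pair early and late fractions into 3 profiles: the non-hybrid clones 13 and 16, labelled homozygous for the deletion, and the cas/129 hybrid clone 79, whose label gives the deletion as 47900079-48581357 and no zygosity. Clone 79 has 1 score column per parental chromosome, cast and svim, so the members fill 4 columns.

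The profiles set beside them were as follows. 46C is the 1 unedited mESC profile. The left-edit profiles are 6 further non-hybrid profiles whose deletions or inversions all end at or before 48235964: 2kdel, 45kdel, 350kdel, 45kinv and 350kinv, labelled homozygous, and 500kdel, labelled heterozygous. The other non-hybrid deletions set beside 680kdel are 345kdel, 435kdel and 245kdel (clones 25 and 28), all labelled homozygous. Non-hybrid 100kdel is given for its score at interval c alone. In cas/129 cells the comparison clones are 30kdel B11, 30kdel C2, 29kdel D8, 14kdel D11 and 24.5kinv 3, each with 1 small edit. The edits are 48665576-48695490 in 30kdel, 48235963-48264883 in 29kdel, 48264884-48280115 in 14kdel and 48311882-48336437 in 24.5kinv. The 30kdel edit thus lies right of interval c, within the flank described here. The deletion clones among them have blank positions on svim and none on cast, so their svim scores come from an edited chromosome. No unedited cas/129 profile was used here. Per the labels' protocols 46C grew with serum and LIF and the hybrid cells with 2i inhibitors and LIF, so background and medium cannot be told apart, and no test was made across backgrounds. Each edited line is 1 clone with 1 library per fraction unless a second clone or library is named, and the labels name no separate cultures, so p-values measure only the spread between these profiles, which may be technical in part.

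Replication timing is the order in which stretches of chromosomes are copied during S phase. Early domains tend to be open and transcribed and late domains to be compact, and the stretches between them are timing transition regions, where the score declines step by step. The deleted stretch carries Dppa2 and Dppa4, which encode DNA-binding proteins of pluripotent cells, the predicted gene Gm52257, and part of Morc1, an ATPase gene known for transposon silencing in the mouse male germ line. It also holds 3 short stretches that the study deleted on their own and named a (48308399-48311882), b (48396806-48437301) and 4k (48280115-48284009). Interval c (48581359-48620367, 39 kb) is the fourth and starts directly right of the deletion, inside Morc1 and over the long non-coding RNA gene Gm41458, so 680kdel keeps it. The question addressed here is how interval c and the chromosome to its right, as far as 50 Mb, replicated once the stretch to their left was gone.

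The score was higher where replication was earlier. The median over 10 control genes of early domains exceeded that over 6 control genes of late domains in 68 of 68 profile columns examined. Differences between profiles are in units of this score and are not fold changes. The files give no read depth, so values carry no counting interval, and their precision rests on how far clones of one kind lie apart. Scores of neighbouring positions, 5 kb apart, changed smoothly and are not independent.

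The deletion itself was visible as missing data. Of the 136 positions inside it, 0 had a score in 680kdel 13, in 680kdel 16 and in the cast column of 680kdel 79, whereas all 136 had one in the svim column of clone 79 and in 46C. In clone 79 the blank was thus on the cast chromosome. All 8 positions of interval c and all 276 positions from there to 50 Mb had a score in these 5 columns.

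Interval c replicated late in the 680kdel non-hybrid clones and early in 46C and in all 6 left-edit profiles. Its mean score over 8 positions was -1.50 in 680kdel 13 and -1.63 in 680kdel 16, against 1.92 in 46C. In 46C and the left-edit profiles together it lay between 1.46 and 2.33, with a median of 2.09 (n = 7). The groups did not overlap: both 680kdel clones were below 0 while all 7 reference profiles were above it.

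**Figure D1:**
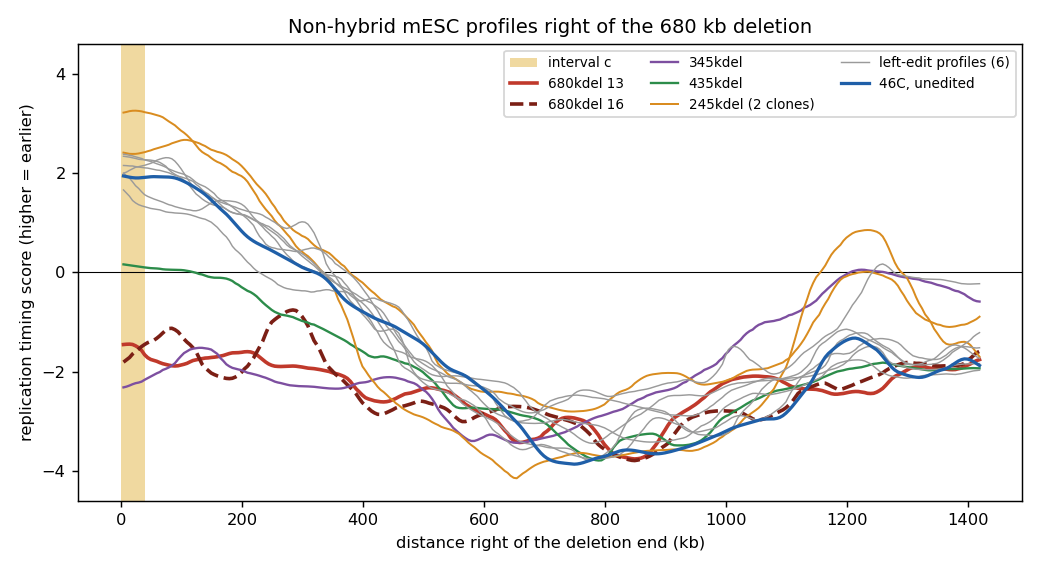
Timing score (vertical axis, higher is earlier) against distance right of the deletion end in kb, 1 line per non-hybrid profile, with interval c shaded. The 680kdel lines start at -1.45 and -1.81 and stay below 0 to the right edge, whereas 46C and the 6 left-edit profiles start between 1.66 and 2.38 and cross 0 between 229 and 374 kb.

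The same held position by position. At the position nearest to the deletion, 48585000, 680kdel 13 scored -1.45 and 680kdel 16 scored -1.81, against 1.94 in 46C. At 48590000 they scored -1.45 and -1.76, against 1.93 in 46C, and at 48595000 they scored -1.44 and -1.71, against 1.92. Both clones were therefore low from the first measured position on, with no step within interval c. At 48600000 the clones scored -1.45 and -1.64, against 1.91 in 46C, and at 48605000 -1.48 and -1.60, against 1.90. At 48610000 they scored -1.52 and -1.54, against 1.90, at 48615000 -1.57 and -1.49, against 1.91, and at 48620000 -1.66 and -1.45, against 1.91. Clone 13 was the earlier of the pair in the 6 positions nearest to the deletion and clone 16 in the last 2.

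Against 46C alone the drop at interval c was -3.48 ± 0.46 (SE; 95% CI -4.59 to -2.37), in a limma fit over all non-hybrid profiles. Both clones were low, but the difference missed the threshold of 0.05 after adjustment over chromosome 16 (adjusted p = 0.0702, limma). 46C is 1 profile, so the spread in this fit came from the pairs of 680kdel and 245kdel clones. With the 45kinv libraries as separate profiles the same difference had an adjusted p of 0.0264 (limma). These are taken as repeat libraries of 1 clone, so that fit counts spread between libraries as spread between clones. None of the 1882 windows of 50 kb was called in limma (0% lower and 0% higher), and 188 had an unadjusted p under 0.05. Differences above 2 were found in 8 windows, 4 of them right of the deletion, and the largest beyond 2 Mb was 2.32 in size.

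Against 46C and the left-edit profiles together the drop was -3.57 ± 0.24 (SE; 95% CI -4.08 to -3.06; adjusted p = 2.61e-07, limma, n = 2 against 7). The 680kdel clones averaged -1.56 ± 0.09 and the 7 reference profiles 2.00 ± 0.31 (SD). The drop was between -3.66 and -3.50 when any 1 profile of either group was left out, and passed each time. An exact two-sided permutation test over these 9 profiles gave p = 0.0556, the smallest that 36 splits allow, and 0.0889 adjusted over 8 regions, so that design cannot reach 0.05.

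**Figure D2:**
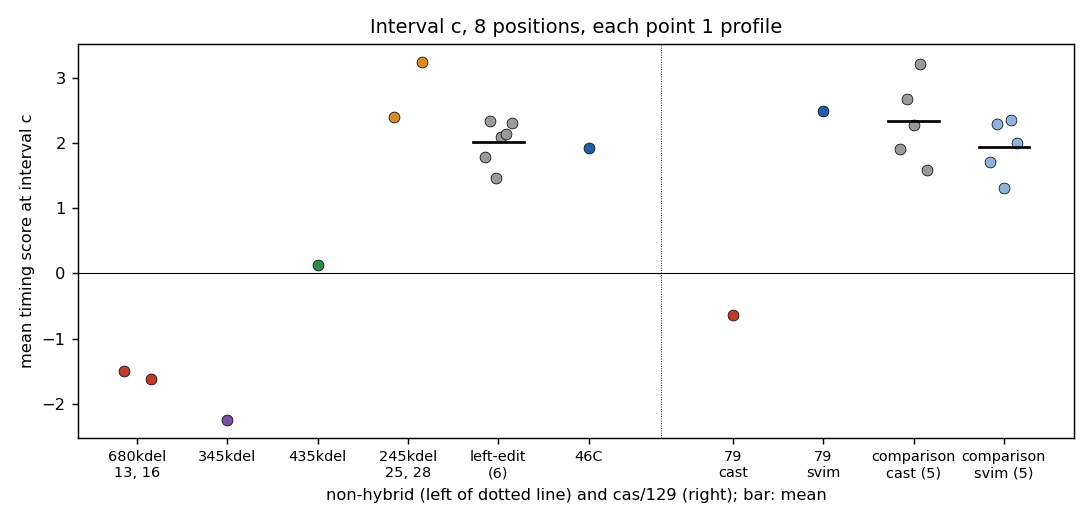
Mean timing score over the 8 positions of interval c, 1 point per profile, non-hybrid profiles left of the dotted line and cas/129 columns right of it, with a bar at the mean of groups of 5 or more. The 680kdel, 345kdel and 79 cast points lie below 0, 435kdel lies at 0.13 and the others lie above 1.

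The late state reached well beyond interval c. Scores were averaged over 7 steps of 200 kb, numbered from the right end of interval c, the last one shorter. In the first step (48620368-48820367) the score was -1.74 in 680kdel 13 and -1.65 in 680kdel 16, against 1.40 in 46C and 0.83 to 1.68 over the 7 reference profiles. The difference was -3.11 ± 0.23 against the 7 profiles (SE; adjusted p = 7.16e-07, limma). In the second step it was -1.84 ± 0.21 (adjusted p = 8.92e-05, limma), with 680kdel 13 at -2.12 and 680kdel 16 at -1.78, against -0.48 to 0.08 in the reference profiles.

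From the third step on the differences were smaller. There the 680kdel clones still lay below all 7 reference profiles, at -2.61 and -2.77 against -2.47 to -1.82, but the difference of -0.60 ± 0.22 did not pass (adjusted p = 0.106, limma). In the last 4 steps the differences were -0.04, -0.14, -0.49 and -0.40, and none passed (lowest adjusted p = 0.206, limma). In the sixth step both clones, at -2.31 and -2.49, again lay below all 7 reference profiles (-2.16 to -1.38). The exact permutation test gave p = 0.0556 there and in the third step, as at interval c. Against 46C alone no step passed, with -3.09 in the first (adjusted p = 0.0702, limma), -1.69 in the second (0.363) and between -0.82 and 0.44 in the others. The first step passed with the 45kinv libraries, repeats of 1 clone, separate (adjusted p = 0.0202, limma). With only the groups compared the first and the second step passed (second step, adjusted p = 5.00e-04, limma). 500kdel stood apart in the seventh step, at -0.10 against -2.05 to -1.55 in the other 6 reference profiles.

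The edge of the stretch lower than the reference profiles can also be read without windows. Counting from interval c, 680kdel 13 stayed below all 7 reference profiles without a break for 102 positions, to 49090000, or 509 kb from the deletion. 680kdel 16 did so for 118 positions, to 49170000, or 589 kb. Up to 50 Mb the clones lay below all 7 at 141 and 158 of 284 positions. How often they did so on the rest of the chromosome was not counted, so these counts do not show that it is particular to this stretch. In 46C and the left-edit profiles the score first fell below 0 between 48810000 (350kdel) and 48955000 (45kdel), in 46C at 48905000. The 680kdel clones had 0 of 284 positions above 0 between the deletion and 50 Mb, against 64 in 46C. The decline from early to late that every reference profile showed over this stretch was thus missing in both 680kdel clones, which were already late where it begins.

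Within that late stretch the clones were not identical. 680kdel 16 had a local peak of -0.76 at 48865000, 284 kb right of the deletion and near Retnlg, where it was 1.13 above 680kdel 13. Over the 284 positions the clones differed by 0.32 on average in absolute terms, and by 0.36 over 18584 positions of the rest of the chromosome. Both clones reached their lowest score at the same position, 49430000, at -3.76 in clone 13 and -3.79 in clone 16, and 46C reached -3.86 at 49330000.

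Windows of 50 kb located the called stretch. In the fit against 46C and the left-edit profiles 47 of 1882 windows were lower (2.5%) and 85 higher (4.52%). Right of the deletion to 50 Mb 10 of 28 windows were lower and 0 higher. An unbroken run of lower windows covered 48600001-49050000, or 450 kb. Its full length depends on clone 13, as the totals at the end of this paragraph show. Of all called windows 120 lay over 2 Mb from the deletion. The 16 control genes differed by -0.66 to 1.12, and 4 of them, Son, Donson, Chodl and Robo1, were called as well. The 680kdel clones thus differed from the reference profiles elsewhere on the chromosome too. The changes there were smaller: the largest beyond 2 Mb was 1.76, at 78750001-78800000, followed by 1.75 at 6050001-6100000 and 1.72 at 78700001-78750000, all higher in 680kdel. All 5 windows that differed by more than 2 lay right of the deletion. The total length called lower was 2350 kb, but 350 kb without clone 13, 900 kb without clone 16 and 8200 kb without 500kdel, so only the region near the deletion is described further.

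**Figure D3:**
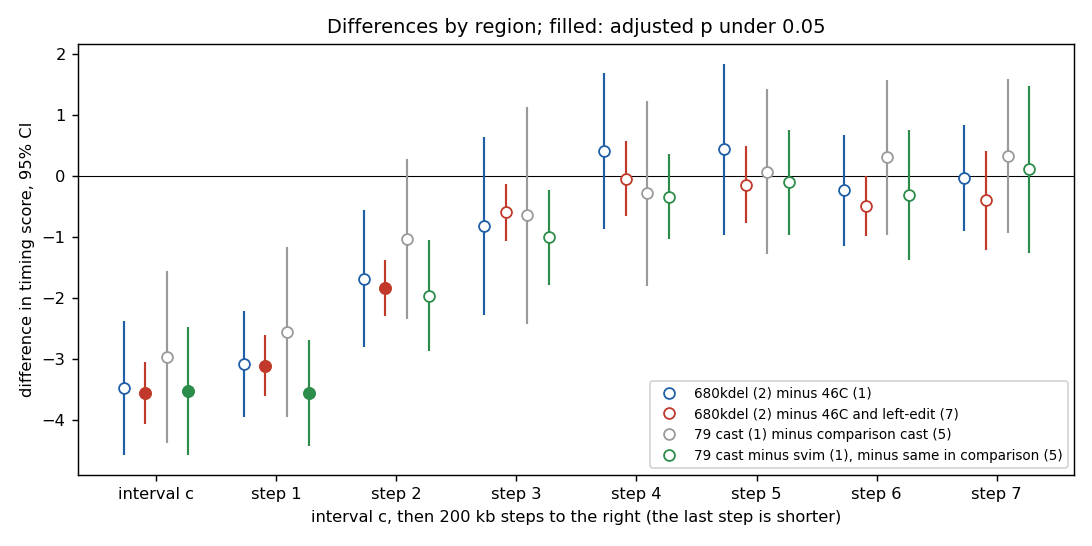
Difference in timing score with its 95% confidence interval (vertical axis) at interval c and in the 7 steps to its right, for 4 comparisons with the number of profiles on each side in brackets. Filled points passed an adjusted p of 0.05. The 4 differences lie between -3.57 and -2.56 at interval c and in the first step, and between -0.34 and 0.41 in the fourth.

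Shorter deletions inside the same stretch differed in their score at interval c. 345kdel (48235964-48581356) shares the right end of 680kdel and, like it, removes a, b and 4k. 435kdel (47900059-48336419) shares the left end, removes a and 4k and keeps b. 245kdel (48336437-48581357) removes b alone of these. Interval c scored -2.25 in 345kdel, 0.13 in 435kdel, and 2.40 and 3.24 in the 245kdel clones, so of these only 345kdel lay below 0 like 680kdel. Non-hybrid 100kdel (48235964-48336419) removes a and 4k and keeps b, as 435kdel does. It scored 1.63, within the range of the 7 reference profiles (1.46 to 2.33), and was not tested against 680kdel. 345kdel, 435kdel and 100kdel are single profiles.

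The test of 680kdel against 345kdel found 0.68 ± 0.46 at interval c (SE; 95% CI -0.43 to 1.79; adjusted p = 0.576, limma, n = 2 against 1). An interval that wide does not show that they are alike. Further right, in the sixth step, 680kdel 13 and 16 scored -2.31 and -2.49, against -0.54 in 345kdel and -2.16 in 46C. In the seventh step 680kdel averaged -1.93, against -0.22 in 345kdel and -1.90 in 46C. In both steps 680kdel thus lay nearer to 46C than 345kdel did. The difference of 680kdel from 345kdel in the sixth step was -1.86 ± 0.38 (95% CI -2.77 to -0.95). It did not pass the chromosome-wide test (adjusted p = 0.203, limma), and the seventh step gave -1.71 with the same adjusted p. In limma 0 of 1882 windows were called lower or higher (0%), and 292 had an unadjusted p under 0.05. Differences above 2 were found in 27 windows, 2 of them right of the deletion, and the largest beyond 2 Mb was 2.57 in size. 345kdel is 1 profile, and a second clone of it was not analysed here.

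Against 245kdel, which leaves the left part of the stretch in place, 680kdel was lower by 4.39 ± 0.38 at interval c (-4.39; SE; adjusted p = 0.00410, limma, n = 2 against 2). In the first step 680kdel 13 and 16 scored -1.74 and -1.65, against 2.36 and 2.40 in 245kdel 25 and 28, a difference of -4.07 (adjusted p = 0.00410, limma). The second, sixth and seventh steps gave -1.90, -1.55 and -1.25 and did not pass (adjusted p = 0.0542, 0.0542 and 0.0734, limma). In the sixth and seventh steps 46C scored -2.16 and -1.90, nearer to 680kdel (-2.40 and -1.93) than to 245kdel (-0.85 and -0.68). Without 245kdel 25 the second step gave -1.49 and without 245kdel 28 it gave -2.31. The sixth step gave -1.71 and -1.39 in that order, and the seventh -1.29 and -1.21. In the full fit over the chromosome 32 windows were lower (1.7%) and 21 higher (1.12%), and 8 of the 28 right of the deletion were lower. Of the called windows 33 lay over 2 Mb away. Differences above 2 were found in 62 windows, 8 of them right of the deletion, and the largest beyond 2 Mb was 3.21 in size. With 1 680kdel clone left out interval c no longer passed (adjusted p = 0.280 without clone 13 and 0.263 without clone 16, limma), although the difference stayed between -4.45 and -4.32. The first step was lost likewise (adjusted p = 0.246 and 0.243, limma).

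Against 435kdel, which keeps b and the stretch to interval c, the difference at interval c was -1.69 ± 0.46 (SE; 95% CI -2.80 to -0.59). It did not pass (adjusted p = 0.998, limma, n = 2 against 1), and in the first step it was -1.57 (adjusted p = 0.998, limma). None of the 1882 windows was called in limma (0%), and 50 had an unadjusted p under 0.05. 435kdel crossed 0 at 48705000, 124 kb right of the 680kdel end, against 48905000 in 46C.

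In the hybrid clone the chromosome with the blank had a score below 0 at interval c and its partner one above 0. 680kdel 79 scored -0.64 on cast and 2.49 on svim, so the chromosomes of this clone differed by -3.13. In the 5 comparison clones cast scored 1.59 to 3.21, with a median of 2.28, and svim scored 1.31 to 2.34. Their cast minus svim differences were 0.20 in 30kdel B11, 0.37 in 30kdel C2, 0.97 in 29kdel D8, 0.87 in 14kdel D11 and -0.41 in 24.5kinv 3. Clone 79 lay below all 5.

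**Figure D4:**
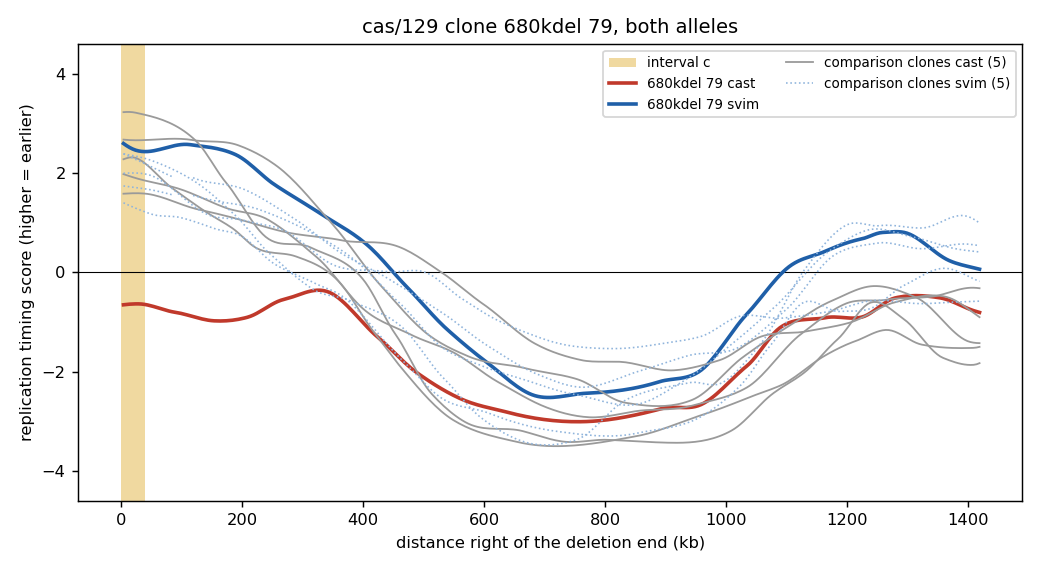
Timing score (vertical axis) against distance right of the deletion end in kb for the cast and svim columns of clone 79 (thick lines) and of the 5 comparison clones (thin lines). The cast line of clone 79 starts at -0.65 and runs below all 5 cast lines of the comparison clones as far as 424 kb.

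Both chromosomes of a clone come from the same library, so the difference within the clone was tested against that of the comparison clones. It was lower by 3.53 ± 0.48 in clone 79 at interval c (-3.53; SE; 95% CI -4.58 to -2.48; adjusted p = 0.00514, limma, n = 1 against 5). Clone 79 is 1 clone with 1 library per fraction, so the spread in this test comes from the 5 comparison clones, and that between hybrid 680kdel clones was not measured. In the first step it was -3.57 ± 0.39 (adjusted p = 0.00184, limma), and in the second -1.96 ± 0.42, which did not pass (adjusted p = 0.116, limma). Without 30kdel B11 the second step passed (-2.15, adjusted p = 0.0313, limma). The third step gave -1.01 (adjusted p = 0.960, limma). Over the chromosome 4 of 1880 windows were lower (0.213%), all right of the deletion between 48600001 and 48850000, and 1 was higher (0.0532%), at 75950001-76000000. The window after the first of these is not among those tested, because positions inside the 30kdel edit were left out. Quantile normalization of the columns ended the call at interval c (-2.92, adjusted p = 0.254, limma).

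Set directly against the cast columns of the comparison clones, cast of clone 79 was -2.97 ± 0.65 at interval c (SE; 95% CI -4.38 to -1.57) and -2.56 ± 0.64 in the first step. Neither passed (adjusted p = 0.596 and 0.765, limma, n = 1 against 5), and 0 of 1880 windows were called in limma (0%), with 10 at an unadjusted p under 0.05. 24.5kinv 3 had the lowest cast score of the comparison clones there, 1.59, and without it interval c passed (-3.16, adjusted p = 0.0293, limma). Against 23 clones whose edits all end by 48437301 it passed too (-2.90, adjusted p = 0.000229, limma). This set is not the 5 clones with others added. It keeps 29kdel D8, 14kdel D11 and 24.5kinv 3 but leaves out both 30kdel clones. The edits of its other clones all lie inside the 680kdel stretch. They include 100kdel, 435kdel, 435kinv and smaller deletions, among them deletions of a, b and 4k alone or in pairs. The svim chromosome of clone 79 was 0.56 above that of the comparison clones at interval c (95% CI -0.65 to 1.77), 1.00 above it in the first step and 0.93 in the second (adjusted p = 0.999 each, limma). The cast minus svim values of -3.57 and -1.96 in those steps thus hold a lower cast (-2.56 and -1.04) and a higher svim, and neither passed alone. On svim 0 of 1885 windows were called in limma (0%), and 11 had an unadjusted p under 0.05.

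The cast chromosome of clone 79 was less late than the non-hybrid clones. At interval c it scored -0.64, against -1.50 and -1.63 in 680kdel 13 and 16, and this contrast was not tested because background and medium differ. It ran below all 5 comparison cast columns for 85 positions without a break, to 49005000, 424 kb from the deletion. It did so at no position from there to 50 Mb, and the rest of the chromosome was not counted. Like 680kdel 16 it had a local peak, -0.36 at 48910000, and like both non-hybrid clones it had 0 of 284 positions above 0 up to 50 Mb. Its svim partner crossed 0 at 49035000 and the comparison cast columns crossed between 48925000 and 49115000. Cast of clone 79 was below svim at all 284 positions, but in the last steps the comparison clones had that order too, with a mean cast minus svim of -0.97 in the sixth and -1.19 in the seventh step, against -1.28 and -1.08 in clone 79.

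The genes right of the deletion followed the same gradient. The annotation (RefSeq, GRCm38.p6) places 11 protein-coding genes between the deletion end and 50 Mb. In order they are Morc1, Trat1, Retnlb, Retnla, Retnlg, Dzip3, Cip2a, Myh15, Gm4802, Ift57 and Cd47. Against 46C and the left-edit profiles 7 of the 11, the first 7 from the deletion, were lower, with 4.44% of all 676 genes lower and 5.62% higher. The median difference of the 11 was -1.80, against -0.00013 over all genes. Against 46C alone 3 of 11 were lower, with 0.592% of all genes lower and 0% higher: Morc1 (-3.48), Trat1 (-2.75) and Retnlb (-2.06). The other gene lower in that comparison, Crybg3 (-2.02), lies outside the flank at chr16:59492088-59601047 and is named after its value was seen. Without either 680kdel clone Morc1, Trat1 and Retnlb no longer passed against 46C (adjusted p between 0.333 and 0.637, limma). Against 245kdel 8 of 11 were lower, with 9.47% of all genes lower and 5.03% higher, and Cip2a, Myh15 and Gm4802 were the ones that did not pass. Without 680kdel 13 all 8 missed the threshold (adjusted p between 0.0508 and 0.238, limma), without 680kdel 16 Retnlg, Dzip3, Ift57 and Cd47 did, and without 245kdel 28 Cip2a passed (-2.23). A gene score uses positions already counted in the steps, so it adds no support of its own.

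The remaining part of Morc1 scored -1.57 and -1.56 in 680kdel 13 and 16, against 1.92 in 46C and 1.41 to 2.30 in the 7 reference profiles, a difference from the 7 of -3.55 (adjusted p = 1.21e-07, limma). Trat1, an adaptor of the T-cell receptor, scored -1.65 and -1.94, against 0.96 in 46C, with a difference of -2.89 (adjusted p = 7.27e-07, limma). The resistin-like genes Retnlb, Retnla and Retnlg, which encode small secreted proteins, differed by -2.26, -1.89 and -1.66 (adjusted p = 5.97e-05, 9.69e-04 and 0.00428, limma). These 3 genes lie under the local peak of clone 16. Retnlg scored -1.89 in clone 13 and -0.79 in clone 16, against -0.36 to 0.98 in the reference profiles. Without clone 13 Retnla (adjusted p = 0.0951, limma) and Retnlg (0.176) no longer passed.

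Dzip3, a RING-type ubiquitin ligase gene, and Cip2a, which encodes an inhibitor of a protein phosphatase, start next to each other and mark the far end of the called stretch. Dzip3 scored -2.23 and -2.31 in the 680kdel clones, against -0.57 to -0.06 in the reference profiles, and Cip2a scored -2.59 and -2.82, against -1.20 to -0.55. The differences were -1.88 and -1.80 (adjusted p = 5.19e-06 and 2.51e-05, limma). Beyond them Myh15, a myosin heavy chain gene, gave -0.51 and Gm4802 -0.62. Ift57, a gene of transport within cilia, gave -0.51 and Cd47, an inhibitory surface signal to phagocytes, -0.32. None of them passed (adjusted p = 0.0978, 0.147, 0.105 and 0.682, limma). Ift57 scored -2.38 and -2.33 in 680kdel 13 and 16, against -1.99 in 46C and -0.50 in 345kdel. Cd47 scored -1.99 and -1.85, against -2.04 in 46C and -0.11 in 345kdel. Ift57 and Cd47 were lower in 680kdel than in 345kdel, by 1.85 and 1.81 (-1.85 and -1.81; adjusted p = 0.0266 and 0.0229, limma; 3.11% of all genes lower and 1.04% higher), but not without either 680kdel clone (adjusted p between 0.218 and 0.333, limma).

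In clone 79 the difference between cast and svim was lower than in the comparison clones at 5 of the 11 genes, with 0.74% of 676 genes lower and 0% higher. They were Morc1 (-3.53, adjusted p = 0.00123), Trat1 (-3.48, adjusted p = 4.99e-04), Retnlb (-2.87, adjusted p = 0.00136), Retnla (-2.53, adjusted p = 0.00427) and Retnlg (-2.25, adjusted p = 0.0145), all in limma. Under quantile normalization Morc1 and Retnlg had an adjusted p of 0.0791 (limma). Dzip3 and Cip2a gave -1.72 and -1.60 and did not pass (adjusted p = 0.262 each, limma), but Dzip3 passed without 30kdel B11 (adjusted p = 0.0223, limma) or 29kdel D8 (0.0474), and both passed against the 23 clones. Those 23 include deletions of a, b and 4k, and their svim scores at interval c averaged lower (1.40, against 1.93 in the 5). In the direct cast comparison 0 of the 11 genes were called in limma (0% of 676 lower and 0% higher), with -2.96 at Morc1 (adjusted p = 0.233), -2.35 at Trat1 (0.852) and -1.27 at Retnlg (0.996). On svim clone 79 was above the comparison clones by 0.57 at Morc1, 1.13 at Trat1 and 0.98 at Retnlg, and 0 of 11 were called (0% lower and 0% higher). At an unadjusted p under 0.05 (limma), 4 of the 11 were lower on cast and 0 differed on svim. The share of all 676 genes at that level is not given here. Among windows 10 of 1880 reached it on cast and 11 of 1885 on svim. Cast of clone 79 scored -0.92 and svim 2.31 at Trat1, against 0.80 to 2.53 on cast of the comparison clones.

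**Figure D5:**
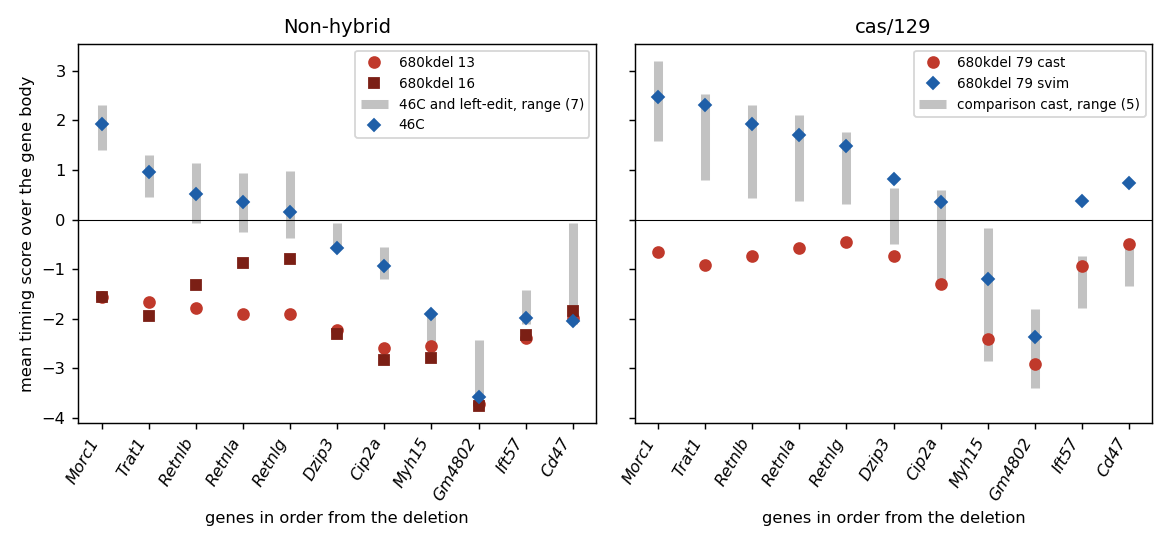
Mean timing score over each gene body (vertical axis) for the 11 protein-coding genes in order from the deletion, with non-hybrid profiles on the left and cas/129 columns on the right. Grey bars span the lowest to the highest of the reference profiles. The 680kdel points lie furthest below the bars at the genes nearest to the deletion, and inside them at Cd47 on the left and Myh15 on the right.

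Promoters were found for 9 of these 11 genes in RefSeq (GRCm38.p6, 300 bases each, from 250 before to 50 after the start). Those of Trat1, Retnla and Cip2a are shown because they differ in place and in base composition. They stand at the near side, the middle and the far end of the stretch called lower than the reference profiles. Capitals mark each CG pair, on the strand of the gene. They are the Trat1 promoter at chr16:48772013-48772312 on the minus strand, the Retnla promoter at chr16:48842359-48842658 on the plus strand and the Cip2a promoter at chr16:48993938-48994237 on the plus strand, which overlaps that of Dzip3.
Trat1 promoter: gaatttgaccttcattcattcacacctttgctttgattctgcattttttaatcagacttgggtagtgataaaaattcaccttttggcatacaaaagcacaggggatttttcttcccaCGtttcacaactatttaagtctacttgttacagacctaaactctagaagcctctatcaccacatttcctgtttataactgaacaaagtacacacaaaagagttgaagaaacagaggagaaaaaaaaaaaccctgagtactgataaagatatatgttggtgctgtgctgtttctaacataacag
Retnla promoter: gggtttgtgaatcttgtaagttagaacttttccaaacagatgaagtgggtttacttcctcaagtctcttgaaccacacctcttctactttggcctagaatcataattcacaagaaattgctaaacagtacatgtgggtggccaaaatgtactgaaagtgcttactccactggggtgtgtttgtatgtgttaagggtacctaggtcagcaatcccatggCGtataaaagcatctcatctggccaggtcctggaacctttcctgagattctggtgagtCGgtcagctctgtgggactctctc
Cip2a promoter: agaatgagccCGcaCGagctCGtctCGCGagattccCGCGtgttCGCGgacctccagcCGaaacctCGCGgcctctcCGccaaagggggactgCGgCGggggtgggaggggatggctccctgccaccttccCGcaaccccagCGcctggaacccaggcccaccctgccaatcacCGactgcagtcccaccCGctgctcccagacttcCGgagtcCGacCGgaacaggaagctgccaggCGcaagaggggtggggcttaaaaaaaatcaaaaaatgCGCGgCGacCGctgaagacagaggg

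The Trat1 promoter holds 1 CG pair, the Retnla promoter 2 and the Cip2a promoter 27, against a median of 7 over 32851 promoters of this length. At least as many were found in 94.6%, 85.9% and 15.5% of those promoters. At the position nearest to this Trat1 start, 48770000, 680kdel 13 scored -1.62 and 680kdel 16 scored -2.11, against 0.97 in 46C. At the Retnla start the clones scored -1.90 and -0.87, against 0.34 in 46C, and at the Cip2a start -2.57 and -2.79, against -0.89. On cast of clone 79 these starts scored -0.96, -0.56 and -1.19, against 2.37, 1.69 and 0.48 on svim. The 680kdel clones were later than 46C at all 3 starts, but these promoters were picked inside the stretch called lower. At the Ift57 start beyond it, with 25 CG pairs, the clones scored -2.33 and -2.44, against -2.55 in 46C. A link between timing and CG pairs was not tested.

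Left of the deletion the scores differed between deletions. Over the 100 kb next to its left end (47800059-47900058) 680kdel 13 scored -1.85 and 680kdel 16 scored -2.35, against -2.98 in 46C and -2.50 to -2.09 in 2kdel, 45kdel, 45kinv and 350kinv. 345kdel scored -3.11, and the 245kdel clones scored -2.75 and below. 435kdel and 350kdel, deletions that share the left end of 680kdel, scored -0.04 and 0.48. On cast clone 79 scored -0.88 and on svim -1.94, against -2.88 to -0.47 on cast of the comparison clones. These values were chosen after seeing the data and have no test, and 500kdel has no score there.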

How the data were processed

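Repli-seq scores for chromosome 16 were used for the 680kdel profiles and the profiles set beside them. BrdU-labelled cells were sorted by S-phase stage, early or late, per the labels' protocols. The build is, per the submitters' processing notes, mm10, and the tools named are Bowtie2, SAMtools and bedtools, with no versions or roles. The deposited table holds 1 score per position, every 5 kb at 19641 positions, with 1 column per pair of fractions. Its columns share their interquartile range, and no source used here states its smoothing, scaling or log base. Among its columns, 6 fit the name of no listed sample and went unused; they include the cas/129 column first meant as reference, and 5 comparison clones took its place.

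Repeat libraries of a clone were averaged. Positions inside the deletion, and inside any edit of the profiles in a fit, were left out. Scores were averaged over interval c, 200 kb steps to 50 Mb, 50 kb windows with at least 0.5 of their positions, and gene bodies. limma 3.58.1 in R 4.3.3 (lmFit and eBayes, two-sided) was fitted across chromosome 16, with Benjamini-Hochberg adjustment over all windows and regions, or over 676 genes, and a threshold of 0.05. In simulated data 200 of 1890 features were shifted, or 200 of 1888 for cast and for cast minus svim. A shift of 4 was recovered in 100% of cases in each fit. A shift of 2 was recovered in 92.5% against 46C and in 100% against 46C and the left-edit profiles. It was recovered in 47.8% for cast and in 95.5% for cast minus svim. For a shift of 1 the values were 11.9%, 79.1%, 2.99% and 28.4%, in that order. Each fit made 4 to 8 false calls. Recovery after adjustment depends on the share of features changed, which is unknown in the real fits. These percentages are thus not the power of those fits. At interval c -3.48 against 46C and -2.97 on cast did not pass.

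The members, gene lists and references were chosen with earlier results of these data known. Named genes are all protein-coding genes from the deletion to 50 Mb and 16 control genes; named windows are the called run at interval c and the 3 largest called changes beyond 2 Mb. 2 genes of the list, Guca1c and Hhla2, were not found in the annotation used. Alternatives covered scaling, quantile normalization, 20 kb more left out, window size, the samples fitted and each profile left out.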

Additional observations from a re-analysis of the deposited data

Results flagged for a closer look

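350kdel lay apart from the other reference profiles in the first step right of interval c, at 0.83 while the other 6 lay between 1.32 and 1.68. 500kdel lay apart in the seventh step, at -0.10 while the other 6 lay between -2.05 and -1.55. Each is a single profile that fell further from its neighbours than Dixon's 95% limit allows, in 2 of 32 groups looked at, and chance marks about 1 in 20. 500kdel is labelled heterozygous.

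In 2 steps both non-hybrid clones differed from 46C in one direction and cast of clone 79 from the mean of its comparison clones in the other, and the difference between them was not tested. In the fourth step 680kdel 13 and 16 averaged 0.41 above 46C, while cast of clone 79 was 0.29 below the comparison clones (-0.29). In the sixth step they averaged -0.24 against 46C, while cast of clone 79 was 0.31 above the comparison clones. Against 46C and the left-edit profiles the fourth step gave -0.04, the sign of cast. In the seventh step the means also had opposite signs (-0.027 and 0.33), but 680kdel 13 and 16 lay on either side of 46C. The 95% confidence intervals of all of these differences include 0.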

How the results depend on the processing

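At interval c the direction was kept under every alternative run in all 8 comparisons, and calls changed as follows. Against 46C it passed with only the groups compared (-3.48, where the spread rests on the 2 680kdel clones alone). It also passed with the 45kinv libraries, repeats of 1 clone, as separate profiles (-3.48, adjusted p = 0.0264, limma). The length called lower, 0 kb, was 4050 kb with only the groups compared, 150 kb with 45kinv separate and 200 kb in windows of 100 kb. Against 46C and the left-edit profiles it passed under each alternative, with 2350 kb lower, 3850 kb after rescaling and 350 to 8200 kb with 1 profile left out. Against 245kdel it lay between -4.81 and -3.96 with 1 clone left out, and 1600 kb lower became 0 to 16300 kb. Against 345kdel 0 kb became 8100 kb with only the groups compared. Against 435kdel that fit gave a call (-1.69, adjusted p = 0.00747, limma) and 400 kb. Cast of clone 79 passed against 23 clones (-2.90, 200 kb lower instead of 0) and lay between -3.16 and -2.75 with 1 clone left out (0 to 50 kb). Cast minus svim was lost with quantile normalization (-2.92, adjusted p = 0.254, limma; 100 kb lower instead of 200) and covered 500 kb against 23 clones. Small uncalled differences turned sign: the seventh step against 46C (-0.096 to 0.043 with 1 clone left out, above 0 without clone 13), the fourth step against 7 profiles (-0.12 to 0.052 with 1 profile left out, above 0 without clone 13, 2kdel or 500kdel) and the step after it (-0.32 to 0.026, above 0 without clone 16). The cause of these changes was not tested. No paired analysis was possible because the replicate numbers in the labels, which could pair samples across groups, mark repeat libraries of a clone, which were averaged, and the groups compared share none; cast minus svim is a difference within a clone, not a block. Read depth is unknown.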
